A study of Mus musculus with 4 samples.

Results

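The genes described are the mouse ubiquitin-conjugating enzymes (E2s) that carry the symbol Ube2, measured as raw read counts by RNA sequencing of stimulated CD4+ T cells. All rows of the count table whose symbol begins with Ube2 were taken, and those with a mean of at least 10 reads over the 4 libraries were kept, which left 32 of 35 such rows among 21937 genes in all. The 3 rows left out, Ube2dnl, Ube2ql1 and Ube2u, had 0 reads in every library, a count that allows up to 3 reads in each. The lowest gene kept, Ube2e2, had a mean of 22.5 reads, and the highest, Ube2d3, had a mean of 10144. The symbol is not a perfect guide to function. Ube2cbp is named for binding Ube2c and is not itself a conjugating enzyme, and Ube2v1 and Ube2v2 are E2 variants that lack the catalytic cysteine.

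The cells were splenic CD4+ T cells of B6 mice, 6 weeks old, and every group received PMA (phorbol 12-myristate 13-acetate) with ionomycin, drugs that bypass the T cell receptor by activating protein kinase C and raising calcium. There was 1 library for each of 4 genotypes: wild type; Itchf/f Cd4cre, called Itch KO here; WWP2-/-, called WWP2 KO; and a library labelled DKO (Itch and WWP2). Cd4cre is active from a thymocyte stage that both T cell lineages pass through, so Itch is lost in T cells and not in the rest of the mouse, whereas the WWP2-/- label names no such limit. The labels give neither the number of mice behind each library nor the length of stimulation. With 1 library a group there was no spread between replicates, no pair of single libraries could be tested, and the intervals below cover counting error only.

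Ubiquitin is attached to proteins by a relay. An E1 enzyme activates it, an E2 carries it as a thioester, and an E3 ligase brings the loaded E2 to a substrate. Itch and WWP2 are E3 ligases of the NEDD4 family, which take ubiquitin from an E2 onto a cysteine of their own before passing it on, and Itch restrains T cell activation. The E2 often decides whether a single ubiquitin or a chain of a given linkage is built, and a few E2s carry ubiquitin-like proteins (SUMO, NEDD8 or ISG15) instead. Some E2s are tied to the cell cycle: Ube2c and Ube2s work with the anaphase-promoting complex, the ligase that marks cyclins and other mitotic proteins for destruction. The comparisons below ask which E2 genes went with the Itch label, which with the WWP2 label, which with proliferation genes and which with none of these.

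The library totals were similar, from 17130747 to 17990392 reads. Read counts below are given for wild type first, then Itch KO, then WWP2 KO, and last the DKO-labelled library. Wwp2 had 1363, 1332, 4 and 1135 reads, so the last does not match its WWP2 label and is named by the label only, as the DKO-labelled library. Itch had 2083, 1914, 1996 and 2389 reads, which does not check the Itch label, since the count takes in exons that a floxed allele may leave in place. The summed level of 8 T cell markers was 1894 to 2231 CPM (reads scaled to one library size after trimmed mean of M values, or TMM, correction), against at most 15.9 for 2 CD8 markers, 3.40 for 6 B cell markers, 5.36 for 4 NK cell markers, 1.72 for 6 monocyte markers, 1.18 for 6 neutrophil markers and 0.484 for 5 erythroid markers. Pax5, S100a8, Elane, Klra8, Hba-a1 and Hbb-b1 were at 0 in all libraries. The sum of 6 basophil and mast cell markers was 5.27 to 28.9 CPM, mostly from Kit, with Fcer1a, Ms4a2 and Mcpt4 at 0. In the DKO-labelled library against wild type Mcpt8 was higher, at a log2 ratio of 2.74, and Kit lower, at -2.41. The sum of 5 dendritic cell markers, set out further below, reached 23.2 CPM. Single markers were less even than the sums. In the DKO-labelled library against wild type, 3 of the 8 T cell markers were higher by the 2-fold rule below and 1 lower. That compares with 18.6% of all genes. They ran from a log2 ratio of -1.24 for Cd5 to 1.13 for Cd3g. Cd8a was at 1.47 in Itch KO against wild type. By summed level only, the labelled cell type was borne out by its markers.

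The 32 E2 genes together took a similar share of all reads in each library, 0.352%, 0.351%, 0.336% and 0.349%, in the order given above. These shares are of raw totals. After TMM scaling the sums were 3579, 3569, 3361 and 3373 CPM, with the DKO-labelled library nearer to WWP2 KO than to wild type. Per kilobase of exon, the highest mean levels belonged to Ube2d3 at 123 CPM per kb, Ube2s at 115, Ube2v1 at 84.4 and Ube2d2 at 82.5, and the lowest to Ube2e2 at 0.848, Ube2j2 at 2.41, Ube2h at 3.46 and Ube2c at 3.80. Without replicates, neighbours in this order cannot be said to differ. The Ube2d genes are close to each other in sequence and several E2 genes have processed pseudogenes, so reads could have been split or lost among copies, and small differences among them are uncertain.

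A gene was called changed between a pair of libraries when its log2 ratio (with a prior count of 2) was at least 1 in either direction, its mean was at least 2 CPM and the 95% counting interval of the fold excluded 1. Of the 32 genes, 31 passed the level, as did 9926 genes in all. Only Ube2c was called in Itch KO against wild type (with DESeq2 size factors Ube2l6 as well), 1 of 31 where 5.73% of all genes were called. In WWP2 KO against wild type 0 of 31 were called, against 0.443% of all genes. Over the pair of comparisons of the Itch label that share no library, Ube2c alone was called in both (background 4.87%), and for the WWP2 label 0 were (background 0.171%). The labels are taken as given here, although Wwp2 had 1135 reads in the DKO-labelled library and 4 in WWP2 KO. The DKO-labelled library against wild type gave 3 of 31 (Ube2c higher, Ube2cbp and Ube2q2 lower), against 18.6% of all genes. Against Itch KO it gave 2 of 31 (background 14.3%), and against WWP2 KO 2 of 31 (background 17.7%), in each case Ube2c and Ube2cbp. None of these counts stands above the share of all genes called. These comparisons share libraries and are not separate evidence.

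With 1.5-fold in place of 2-fold, 3 of 31 were called in Itch KO against wild type (Ube2c, Ube2l6 and Ube2cbp; background 13.2%), 0 of 31 in WWP2 KO (background 1.94%) and 7 of 31 in the DKO-labelled library (background 38.0%). The latter were Ube2c and Ube2l6, which were higher, and Ube2cbp, Ube2d1, Ube2g1, Ube2q2 and Ube2w, which were lower. Against Itch KO the same library gave 5 of 31, including Ube2o (background 33.9%), and against WWP2 KO 7 of 31, including Ube2h and Ube2s (background 36.4%). At this size 2 genes, Ube2c and Ube2cbp, moved the same way with the Itch label in both library-disjoint comparisons (background 9.57%), and 0 did so with the WWP2 label (background 0.806%). The DKO-labelled library was called apart from each other library for 4 of 31 (background 24.8%), namely Ube2c, Ube2cbp, Ube2g1 and Ube2q2. Ube2d1, Ube2h, Ube2l6, Ube2o, Ube2s and Ube2w passed in at least 1 comparison but met neither of these rules, and 21 passed in none.

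**Figure D1:**
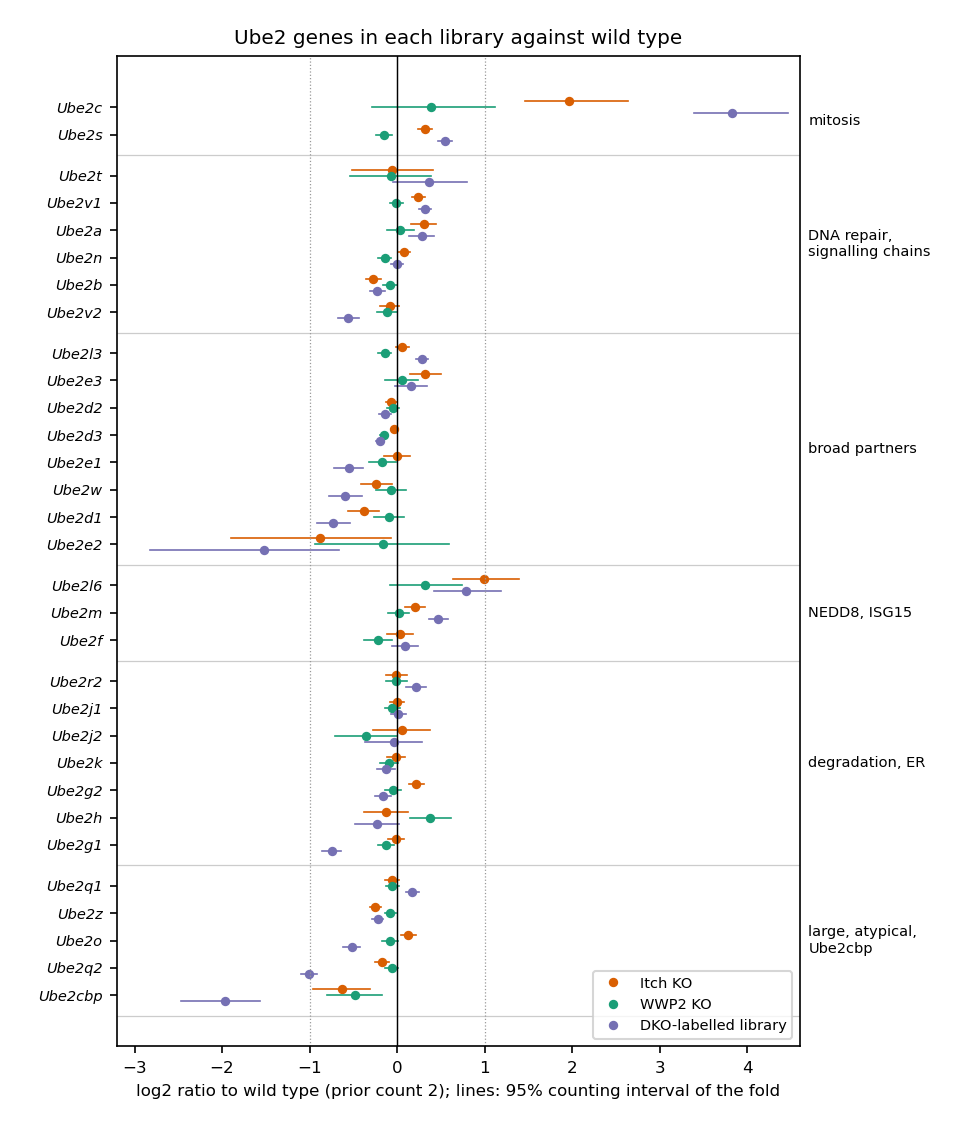
Each row is one of the E2 genes reported, grouped by role; points are log2 ratios to wild type of the other libraries, by colour, lines are 95% counting intervals, and dotted lines mark 2-fold. Ube2c reaches 1.97 and 3.83 in the libraries that carry the Itch label, and most other genes lie near 0.

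The E2s of mitosis include the gene with the largest ratio to wild type of the 32, Ube2c. This gene, for the E2 that starts ubiquitin chains for the anaphase-promoting complex, had 32, 131, 42 and 514 reads. It was low in the libraries without the Itch label and higher in both that carry it. The fold to wild type was 4.09 (2.76 to 6.23) for Itch KO, 1.33 (0.818 to 2.17) for WWP2 KO and 15 (10.5 to 22.1) for the DKO-labelled library. The last of these was also 3.66-fold (3.02 to 4.47) above Itch KO. Ube2s, which lengthens the chains that Ube2c begins, had 2144, 2683, 1912 and 3355 reads. It too was highest in the libraries with the Itch label, over a far narrower range, and in WWP2 KO it was 0.902-fold (0.848 to 0.960) of wild type. It was 1.25-fold (1.18 to 1.32) above wild type in Itch KO and 1.46-fold (1.38 to 1.54) in the DKO-labelled library.

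A test was possible only with models that pool libraries by label. The model reported, across 11197 genes, was additive, with terms for the Itch and WWP2 labels. It coded the DKO-labelled library as lacking WWP2, although Wwp2 had 1135 reads there and 1363 in wild type. The spread of this model comes from 1 residual degree of freedom, the departure of the libraries from additive effects. By edgeR's quasi-likelihood test with Benjamini-Hochberg adjustment, 1 of the 32 genes passed 0.05 for the Itch term, Ube2c, with a log2 change of 2.80 and an adjusted p of 0.0485, where 1.56% of all genes passed. At an unadjusted p under 0.05 there were 3, with Ube2cbp and Ube2s, where 14.8% of all genes were. Ube2c was higher in 2 of 2 libraries with the label than in either without it. That call did not hold across ways of fitting: edgeR's adjusted p for Ube2c was 0.0945 with TMM factors taken from the whole table and 0.256 with the Itch term alone. The choice between 0.0485 and 0.0945 was made after both were known, so neither is a firm result. Ube2cbp (edgeR adjusted p = 0.294) and Ube2s (edgeR adjusted p = 0.310) did not pass.

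The Ube2c profile was set beside 20 mitosis genes. All 20 were called higher, at 2-fold, in Itch KO and in the DKO-labelled library than in wild type, with median log2 ratios of 1.94 and 3.42, and the median in WWP2 KO was -0.04. Ube2c lay inside the range of the list in Itch KO (1.97, list 1.11 to 2.44) and in the DKO-labelled library (3.83, list 2.23 to 4.06). In WWP2 KO its 0.39 was just over the list's highest, 0.33, with a counting interval that includes no change. By distance across the 3 ratios, Ube2c was the 1 gene of 31 nearer to the mitosis median than to no change, against 5.96% of all genes. The S phase list moved less: 8 of 19 tested genes were called higher in the DKO-labelled library and 3 in Itch KO, with medians of 0.53 and 0.11 over all 20 listed. Nearer to that weaker profile than to no change were 8 of 31 E2 genes (Ube2a, Ube2c, Ube2l3, Ube2l6, Ube2m, Ube2s, Ube2t and Ube2v1), below the 31.8% of all genes.

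In these libraries the Itch label and the mitosis genes rise together, so loss of the ligase and a larger share of dividing cells cannot be told apart for Ube2c. In bulk RNA more cells of a kind and more RNA per cell cannot be told apart either. The summed level of 5 dendritic cell markers was also highest in the libraries with the Itch label, at 8.13, 15.7, 5.37 and 23.2 CPM. Most of it came from Xcr1 and Zbtb46, and Flt3 had at most 2 reads. Of the 5 markers, 2 passed the level of 2 CPM. At 1.5-fold both were called higher in Itch KO over wild type (background 13.2%). They were also both higher in the DKO-labelled library over WWP2 KO (background 36.4%). In the DKO-labelled library 1 was called higher and 0 lower over wild type, and 1 higher and 1 lower over Itch KO. Taken over all 5, the markers did not share a direction in the DKO-labelled library against wild type. Xcr1 was at a log2 ratio of 2.43, Siglech at -2.48 and the median at 0.05. The part of dendritic cells in the Ube2c result was not tested.

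**Figure D2:**
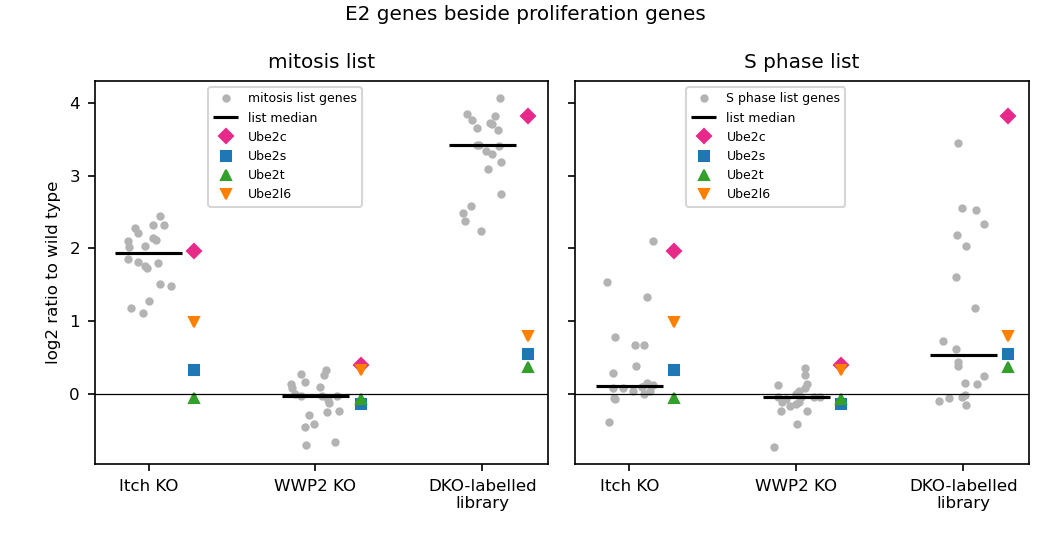
Log2 ratios to wild type (vertical axis) in 3 libraries for the mitosis list (left, grey points) and the S phase list (right, grey points), with black bars at the list medians and coloured symbols for Ube2c, Ube2s, Ube2t and Ube2l6. Ube2c sits among the mitosis genes in Itch KO and the DKO-labelled library, and Ube2s and Ube2t sit far below them.

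Of 16 tested partners of Ube2c and Ube2s in the anaphase-promoting complex, 3 were called in the DKO-labelled library against wild type, near the share of all genes (18.6%), and all 3 were higher: Cdc20, an activator that the mitosis list also holds, at a log2 ratio of 2.38, Fbxo5, an inhibitor of the complex, at 1.38, and the catalytic subunit Anapc11 at 1.03. The other 13 did not pass, and the median was 0.18. Counts for the other gene lists below, in the same comparison, are likewise to be read against 18.6% of all genes at 2-fold and 38.0% at 1.5-fold; with lists this short, few calls or 0 calls say little about a list.

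Promoter sequence was examined because mitosis genes are known to share a pair of elements upstream of their start, the CHR (cell cycle genes homology region) and repeated CCAAT boxes bound by NF-Y. Both strands of RefSeq windows on build GRCm38.p6, from 250 bases before to 50 after each start, were searched for CHR (TTTGAA or TTCGAA) and for CCAAT; overlapping matches each counted. Of the 32 genes, 25 matched a window. The 250 bases before the start are shown for Ube2c, and for Ube2s and Ube2t as E2 genes of division and DNA repair that moved little. As the other E2 gene with a CHR and 3 or more CCAAT matches, Ube2f is shown too. Each reads 5′ to 3′ on the gene's strand, with CHR and CCAAT matches on either strand in capitals.
Ube2c, chr2:164769679-164769928, plus strand: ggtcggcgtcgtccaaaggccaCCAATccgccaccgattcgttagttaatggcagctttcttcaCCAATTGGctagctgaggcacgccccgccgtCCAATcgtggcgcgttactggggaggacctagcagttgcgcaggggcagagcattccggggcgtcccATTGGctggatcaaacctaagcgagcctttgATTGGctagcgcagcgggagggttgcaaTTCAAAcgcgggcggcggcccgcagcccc
Ube2s, chr7:4812341-4812590, minus strand: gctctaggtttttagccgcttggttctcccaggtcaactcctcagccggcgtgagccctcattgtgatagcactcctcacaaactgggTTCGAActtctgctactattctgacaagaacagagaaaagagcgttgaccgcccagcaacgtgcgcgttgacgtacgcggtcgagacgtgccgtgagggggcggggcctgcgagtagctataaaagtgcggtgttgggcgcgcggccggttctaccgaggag
Ube2t, chr1:134962315-134962564, plus strand: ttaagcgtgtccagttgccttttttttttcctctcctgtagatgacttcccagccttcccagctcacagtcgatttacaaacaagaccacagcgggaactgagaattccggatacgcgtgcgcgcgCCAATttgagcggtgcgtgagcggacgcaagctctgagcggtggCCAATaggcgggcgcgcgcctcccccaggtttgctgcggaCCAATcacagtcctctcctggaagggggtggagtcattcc
Ube2f, chr1:91250054-91250303, plus strand: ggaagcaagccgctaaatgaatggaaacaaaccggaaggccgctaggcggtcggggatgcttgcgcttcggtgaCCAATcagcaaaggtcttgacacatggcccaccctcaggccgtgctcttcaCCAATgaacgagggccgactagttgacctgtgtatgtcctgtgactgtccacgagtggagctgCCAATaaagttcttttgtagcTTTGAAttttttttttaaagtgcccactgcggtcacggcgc

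The Ube2c window held 6 CCAAT matches, of which a pair overlaps, and 1 CHR whose first base is 29 bases before the start. The Ube2s window held 1 CHR match and 0 CCAAT matches, and the Ube2t window 3 CCAAT matches and 0 CHR. A CHR match was present in 19.2% of 32851 windows of all genes and in 75.0% of the 16 windows of the mitosis list, and a CCAAT match in 37.4% and 87.5%. In the 36 windows of E2 genes the shares were lower than in all windows, 11.1% for CHR and 16.7% for CCAAT. CHR together with 3 or more CCAAT matches occurred in 0.639% of all windows, in 4 of the 16 of the mitosis list, and in 2 of the 36 windows of E2 genes, those of Ube2c and Ube2f. Ube2f, which carries NEDD8, had 721, 738, 613 and 823 reads. Its fold in the last was 1.06 (0.962 to 1.18). Ube2c and Ube2f met the same rule but differed in detail, with 6 CCAAT matches for Ube2c and 3 for Ube2f. The part of these elements in either ratio was not tested.

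Of the E2s of DNA repair and signalling chains, 0 of 6 were called, at either size, in any comparison; in the DKO-labelled library against wild type the share of all genes was 18.6% at 2-fold and 38.0% at 1.5-fold, and 6 genes are too few to set apart from it. Ube2t, which marks FANCD2 and FANCI in the Fanconi anaemia pathway, had 82, 79, 77 and 114 reads. Its fold of 1.30 (0.968 to 1.74) in the DKO-labelled library was not detectable as a change at this depth. Among 12 Fanconi partners, 2 were called there, near the 18.6% of all genes, both higher, Fancd2 at a log2 ratio of 2.56 and Fanca at 2.38, while Usp1, the enzyme that removes the mark, was at -0.62. Ube2v1 and Ube2v2, the alternative partners of Ube2n in building the chains used in NF-kappaB signalling and in damage tolerance, went opposite ways in that library. Ube2v1 had 2855, 3381, 2810 and 3822 reads and a fold of 1.25 (1.19 to 1.31). Ube2v2 had 1392, 1313, 1271 and 1015 reads and was 1.47-fold (1.35 to 1.60) lower. Ube2n itself had 3535, 3737, 3167 and 3790 reads, with a log2 ratio of 0.00 in the DKO-labelled library.

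Ube2a and Ube2b, the near-identical RAD6 enzymes that act with RAD18 and with histone H2B ligases, also diverged a little. Ube2a had 719, 889, 730 and 937 reads, and was 1.24-fold (1.12 to 1.37) above wild type in Itch KO. Ube2b had 2600, 2155, 2425 and 2387 reads, and was 1.21-fold (1.14 to 1.28) lower there. Of 13 ligases of these branches, 0 were called at 2-fold in Itch KO, WWP2 KO or the DKO-labelled library against wild type; the lowest in the last was Rnf8 at a log2 ratio of -0.63.

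The broad E2s, which serve many ligases and include the Ube2d and Ube2l3 enzymes that load ligases of the NEDD4 type, had a median log2 ratio of -0.05, -0.11 and -0.37 for Itch KO, WWP2 KO and the DKO-labelled library against wild type, beside -0.02, -0.01 and -0.03 over all genes. The most abundant, Ube2d3, had 10663, 10453, 9476 and 9985 reads, and Ube2d2 had 3703, 3543, 3538 and 3610. Ube2l3 had 2980, 3109, 2675 and 3882 reads and a fold of 1.22 (1.16 to 1.28) in the DKO-labelled library. For these genes both single knockouts stayed close to wild type. Ube2d1 had 600, 462, 558 and 388 reads, lowest in the libraries with the Itch label, and was 1.66-fold (1.46 to 1.89) lower in the DKO-labelled library than in wild type. Ube2w, which puts ubiquitin on the amino terminus of proteins, had 565, 480, 533 and 402 reads and was 1.51-fold (1.32 to 1.72) lower.

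Within the Ube2e branch, Ube2e1 had 731, 733, 644 and 533 reads, and Ube2e3 had 458, 573, 470 and 550. Ube2e2, the 1 gene under the level of 2 CPM, had 33, 17, 29 and 11 reads, lowest in the libraries with the Itch label, and was 3.22-fold (1.59 to 7.05) lower in the DKO-labelled library with a wide interval. Of 7 tested ligases of the NEDD4 family, 1 was called higher in the DKO-labelled library than in wild type, Nedd4, with 45, 68, 34 and 157 reads and a log2 ratio of 1.66.

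The E2s of ubiquitin-like proteins held the E2 gene that, beside Ube2c, was called higher at 1.5-fold in Itch KO than in wild type. Ube2l6, which carries the interferon-induced modifier ISG15, had 90, 181, 112 and 168 reads. The libraries with the Itch label were the highest, but unlike Ube2c the DKO-labelled library did not exceed Itch KO (0.866-fold, 0.698 to 1.07). Its fold to wild type was 2.01 (1.55 to 2.62) in Itch KO, a log2 ratio of 0.99 that fell just short of the 2-fold rule, and 1.74 (1.34 to 2.28) in the DKO-labelled library. The modifier gene Isg15 had 171, 328, 192 and 443 reads, also highest in the libraries with the Itch label. Unlike Ube2l6, it was higher in the DKO-labelled library than in Itch KO, at a log2 ratio of 0.33. Other interferon-stimulated genes did not share a direction: in the DKO-labelled library, of 11 tested, Isg15, Herc6 and Mx1 were called higher, and Ifit1 and Ifit3 lower. Herc6, the mouse ligase for ISG15, was at a log2 ratio of 1.87 and Ifit3 at -3.40.

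Ube2m, the other NEDD8 carrier, had 1135, 1306, 1137 and 1687 reads and was 1.39-fold (1.29 to 1.5) above wild type in the DKO-labelled library. Of 15 NEDD8 partners 0 were called in any comparison at either size. Of 16 SUMO partners, 1 was called against wild type, the SUMO ligase Pias3, with 70, 81, 68 and 211 reads. Of the E1 enzymes upstream, 0 of 10 were called at 2-fold in any comparison, and in the DKO-labelled library they ran from -0.57 for Uba6 to 0.70 for Uba7, the ISG15 E1. Among 11 genes for ubiquitin and its relatives, Isg15 was the 1 called in that library. Of 7 tested genes with an E2 fold but another symbol, 0 were called at 2-fold, and Ufc1, the carrier of UFM1, was highest there at 0.81.

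The E2s of degradation and of quality control at the endoplasmic reticulum included 1 of the genes that stood apart in the DKO-labelled library. Ube2g1 had 1893, 1879, 1717 and 1209 reads. The first 3 libraries lay close together and the DKO-labelled library lay below them all, 1.68-fold (1.56 to 1.81) below wild type. Its relative Ube2g2, an E2 of endoplasmic reticulum degradation, had 2005, 2335, 1918 and 1921 reads. Ube2j1, Ube2k and Ube2r2 had log2 ratios between -0.13 and 0.22 in that library. Ube2h had 274, 251, 353 and 251 reads, and was highest in WWP2 KO at 1.30-fold (1.11 to 1.53) over wild type. Ube2j2 had 159, 165, 123 and 166 reads and was lowest in WWP2 KO. Of 11 tested genes of endoplasmic reticulum degradation, 1 was called, Herpud1, with 2780, 1795, 1468 and 1483 reads, lower in all 3 other libraries than in wild type.

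The large and atypical E2s were grouped with Ube2cbp, which is not itself a conjugating enzyme. These 5 genes had a median log2 ratio of -0.52 in the DKO-labelled library against wild type. That was the lowest group median, with the broad E2s next at -0.37. With Ube2cbp left out, the middle values were Ube2o at -0.52 and Ube2z at -0.22. The rank therefore depends on Ube2cbp and does not set these E2s below the broad ones. Ube2cbp had 202, 130, 143 and 54 reads. It ran the other way from Ube2c, with wild type the highest and the DKO-labelled library far the lowest. It was 1.55-fold (1.24 to 1.95) lower than wild type in Itch KO. The same ratio was 1.4-fold (1.12 to 1.74) lower for WWP2 KO and 4.01-fold (2.96 to 5.52) lower for the DKO-labelled library. Ube2q2 had 2820, 2511, 2675 and 1509 reads. As for Ube2g1, the first 3 libraries were near each other, and the fold of 2.0 (1.88 to 2.13) below wild type lay on the edge of the rule. It lost the call with library totals alone as the scale. Its relative Ube2q1 had 2777, 2668, 2645 and 3358 reads and was 1.13-fold (1.07 to 1.19) higher, the other direction. Ube2o, a hybrid E2 and E3 known for clearing proteins in maturing red cells, had 1996, 2186, 1872 and 1496 reads and was 1.43-fold (1.34 to 1.53) below wild type in the DKO-labelled library. Ube2z, which is charged by Uba6, had 4239, 3570, 3977 and 3907 reads.

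The Itch label could be compared over a pair of contrasts that share no library, Itch KO over wild type and the DKO-labelled library over WWP2 KO. Across the 32 genes the log2 ratios had the same sign in 25 (6368 of 9926 over all genes tested), with Pearson's r of 0.89 and Spearman's rho of 0.76, against 0.70 and 0.45 over all genes. Without Ube2c r was 0.74 and rho 0.74 over 31 genes. For the WWP2 label, WWP2 KO over wild type and the DKO-labelled library over Itch KO, the sign was the same in 18 of 32 (5580 of 9926 over all genes). There r was 0.54 and rho 0.32, with 0.33 and 0.25 left without Ube2c, against 0.15 and 0.15 over all genes. These values are across genes, which are not independent replicates and share their libraries, and carry no test. The contrasts follow the labels. By reads, the DKO-labelled library over WWP2 KO also differs in Wwp2, with 1135 against 4, so it is not a contrast of Itch alone. The DKO-labelled library over Itch KO sets 1135 Wwp2 reads against 1332.

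**Figure D3:**
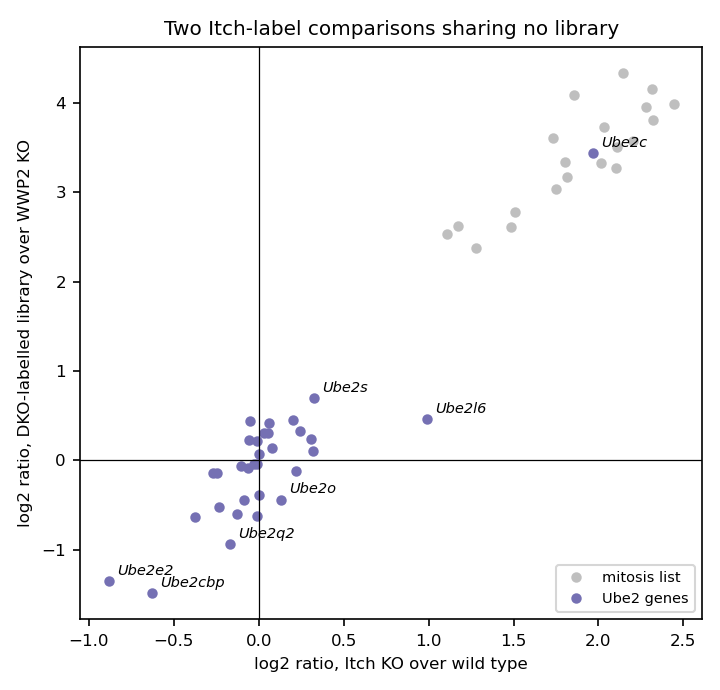
Each point is a gene, with its log2 ratio in Itch KO over wild type (horizontal) and in the DKO-labelled library over WWP2 KO (vertical); purple points are the 32 E2 genes and grey points the mitosis list. Ube2c (1.97 and 3.44) lies among the mitosis genes, and Ube2cbp (-0.63 and -1.49) lies at the opposite end.

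Lower ratios in the DKO-labelled library tended to go with a longer genomic span, a feature that the choice of genes did not use. Over the 32 genes, Spearman's rho between span (GENCODE M21 on GRCm38) and the log2 ratio to wild type was -0.69, and -0.59 over the 29 left without Ube2c, Ube2cbp and Ube2e2. Over 9844 genes with a length it was 0.00. The 16 shorter genes, 3.16 to 30.3 kb, had a median log2 ratio of 0.09. Of them 7 were below 0, and 1 was at -0.5 or below. The 16 longer genes, 30.5 to 320.2 kb, had a median of -0.37. Of them 5 were above 0, and 8 were at -0.5 or below. Over all 9926 genes tested, the median absolute log2 ratio in this comparison was 0.43. The share of all genes at -0.5 or below, in either range of span, was not computed, so these counts have no background beside them. With exon length rho was -0.16, and -0.32 over the same 29 genes, and with expression level it was 0.06 and -0.04. In Itch KO over wild type the rho with span was -0.46, and -0.28 without the same 3 genes. The values share 1 library on each side and are given as a description, with no test.

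**Figure D4:**
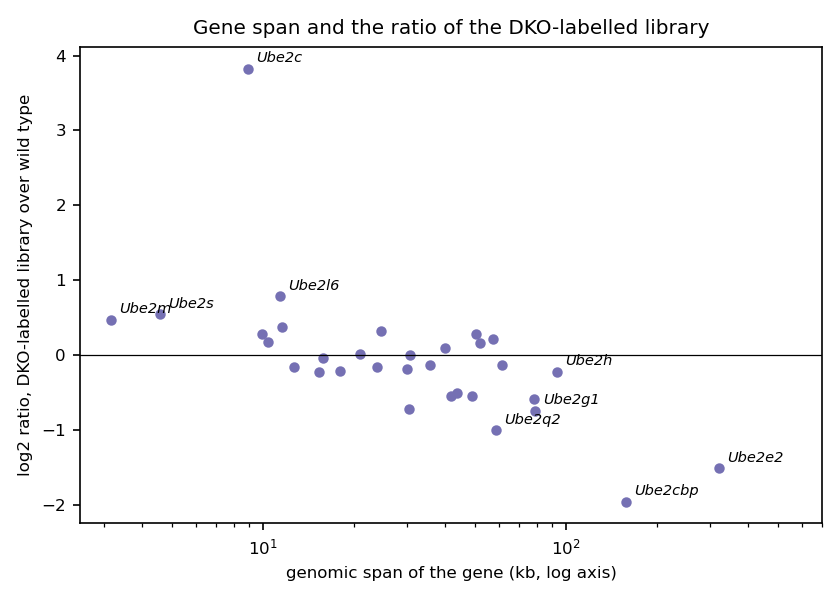
Each point is 1 of the 32 E2 genes, with its genomic span in kb on a log axis and its log2 ratio in the DKO-labelled library over wild type on the vertical axis. Short genes such as Ube2m and Ube2s lie above 0, Ube2c stands apart at 3.83, and the longest genes, Ube2cbp and Ube2e2, lie lowest.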

How the data were processed

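RNA from stimulated splenic CD4+ T cells was sequenced after mRNA enrichment, per the labels' protocols. The authors deposited raw read counts per gene symbol, as they came from counting. The submitters' processing notes list HTSeq 0.7.1, TopHat 1.4.1, Bowtie 1.0.0 and the build mm9; the sources used here do not give annotation, strand setting or filters, so antisense partners may share reads. Replicates do not exist: each genotype has 1 library.

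Counts were scaled with TMM factors (edgeR 4.0.16, R 4.3.3), and folds carry exact conditional binomial 95% intervals, which cover counting error only, since without molecular identifiers reads are not independent molecules. Log2 ratios used a prior count of 2. The additive model took library sizes and TMM factors from the genes kept by edgeR's filter; this order was chosen after its result and that of the whole-table factors were both seen. DESeq2 1.42.0 was an alternative. Scripts were tested on simulated data. Other steps used scipy 1.17.1, pandas 2.3.3, numpy 2.4.6 and, for figures, matplotlib 3.10.9, in Python 3.11.15. Lengths came from GENCODE M21 and promoters from RefSeq, both on GRCm38, another build than the counts; all 32 genes matched a length.

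Every Ube2 gene could be named, with full statistics for those passing 2-fold or 1.5-fold in any comparison and the 2 highest and 2 lowest of each role group. A few genes of the family and of the lists are counted but not reported here by name. The genes, roles and lists were chosen with earlier results of these data known.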

Additional observations from a re-analysis of the deposited data

Results flagged for a closer look

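A pair of E2 genes had opposite directions in the comparisons of the Itch label that share no library, with each counting interval excluding no change; the difference between the comparisons was not tested. Ube2g2 had a log2 ratio of 0.22 in Itch KO over wild type and -0.11 in the DKO-labelled library over WWP2 KO. Ube2o had 0.13 and -0.44.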

How the results depend on the processing

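With 1.5-fold in place of 2-fold, the E2 genes called numbered 3 in place of 1 in Itch KO against wild type, 7 in place of 3 in the DKO-labelled library against wild type, 5 in place of 2 against Itch KO, 7 in place of 2 against WWP2 KO, and 2 in place of 1 for the Itch label over library-disjoint pairs. With a minimum level of 10 CPM, which Ube2c, Ube2cbp and Ube2l6 do not reach, the same counts were 0, 1, 0, 0 and 0, and 0 genes were nearer to the mitosis profile. With DESeq2 size factors, or a prior count of 0.5, Itch KO against wild type gave 2. Nearer to the S phase profile were 8 in place of 1. The Itch term called 0 in place of 1 with the Itch term only, and 0 with TMM factors from the whole table. Ube2c had an edgeR adjusted p of 0.00853 with no filter and 0.00648 with library totals, and a DESeq2 adjusted p of 1.03e-05. Over all genes the Itch term called 175 in the fit reported, and 1 with the Itch term only, 5 with whole-table factors, 542 with no filter, 591 with library totals and 604 with DESeq2.

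WWP2 KO against wild type gave 0 under every alternative run. All 99 recomputed ratios of 11 named genes stayed within their counting interval, and 0 reversed. Another scaling moved the median of all genes by at most 0.07 on the log2 scale. No paired analysis was possible because each genotype has 1 library and the labels share only 1 replicate number. Depth limits the genes with few reads in some library, the lowest counts being 11 for Ube2e2, 32 for Ube2c, 54 for Ube2cbp and 77 for Ube2t.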
